A study of Mus musculus with 6 samples.

Results

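The TRAF and cIAP genes examined here were the 10 genes Traf1 to Traf6, Birc2, Birc3, Map3k14 and Traf3ip3, chosen by symbol. All 10 were found among the 23420 genes with a value, and all 10 were among the 11233 genes tested. Expression was measured by RNA-seq in splenic B cells enriched with beads from BALB/c mice of wild-type genotype, 7 to 11 weeks old, and cultured for 4 hours, either with the TLR9 agonist CpG ODN 1826 at 10 μg per mL (CpG-stimulated) or without an agonist (unstimulated). CpG ODN 1826 is a synthetic DNA oligonucleotide that activates TLR9. Each group had 3 samples, with replicates 1 and 2 labeled female and replicate 3 male, and no transgene or deleted gene was labeled in either group. The labels name 3 mice, without saying whether cells were pooled or whether samples with the same number share a mouse. The study made this comparison to define a set of TLR9-induced genes.

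TRAF proteins are adaptors that bind the cytoplasmic tails of TNF receptor superfamily members, or act below TLRs and the IL-1 receptor, and most of them also carry a RING domain, as ubiquitin ligases often do. The cIAP proteins, encoded by Birc2 and Birc3, are ubiquitin ligases that TRAF2 recruits. In resting B cells a complex of TRAF3, TRAF2 and cIAP keeps NIK, the kinase of noncanonical NF-κB signaling encoded by Map3k14, at a low protein level, and receptors such as CD40 and the BAFF receptor relieve this control. TLR9 instead signals through MyD88 and IRAK kinases to TRAF6.

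After CpG, 4 of the 10 genes were higher (Traf1, Traf4, Traf6 and Birc3), 4 were lower (Traf3ip3, Traf5, Map3k14 and Traf3) and Traf2 and Birc2 did not pass the test. Traf1 rose 5.47-fold and Traf3ip3 fell 3.53-fold, whereas the other changes were under 2-fold. Changes are given as log2FC, the mean log2 CPM (counts scaled to library size) of stimulated minus that of unstimulated samples, and a gene was called at an adjusted p (FDR) under 0.05. A rise or fall is thus relative to the other transcripts of a sample, and total RNA per cell is not known. In this comparison 37.6% of all tested genes were called higher and 36.7% lower, 74.3% in all, so 8 called genes of 10 is near the share among all genes. With a log2FC over 1 as well, the threshold that the study set for its signature of induced genes, Traf1 was the only one of the 10 called higher, against 15.8% of all genes, and Traf3ip3 the only one called lower, against 15.3% with a log2FC under -1, the mirror image of that threshold chosen here. The stimulated and unstimulated samples did not overlap in 8 of the 10 genes, against 77.7% of all tested genes. The median log2FC of the 10 genes was 0.04, that of all tested genes 0.003.

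**Figure D1:**
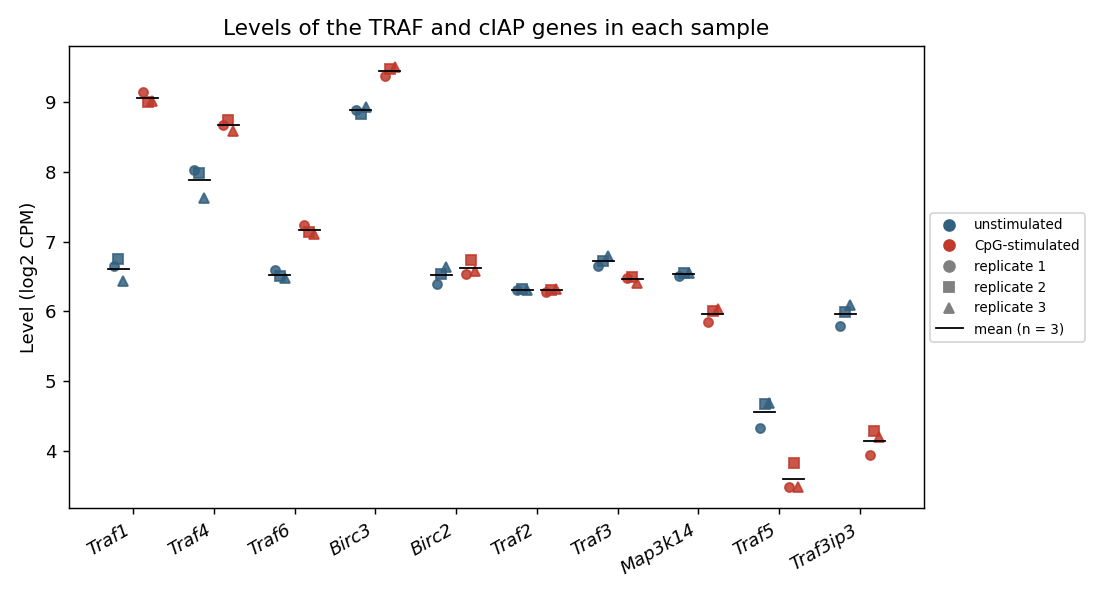
Level of each gene in each of the 6 samples, in log2 CPM on the vertical axis, with genes ordered by log2FC, the group in color, the replicate number as the marker shape, and a line at the mean of each group (n = 3). The 3 stimulated samples of Traf1 sit between 9.01 and 9.16, all above the unstimulated samples at 6.44 to 6.75, and the 6 samples of Traf2 lie between 6.28 and 6.32.

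The reference sequence upstream of the start of transcription is shown for the genes with the largest rise and fall (Traf1 and Traf3ip3), for the gene with the smallest difference (Traf2), for the neighbors Birc3 and Birc2, and for Traf3, which has the only κB match. Each run is the 250 bases before the RefSeq start in GRCm38.p6, read 5′ to 3′ on the strand of the gene, with CG dinucleotides in capitals. The windows are chr2:34961773-34962022 (minus strand), chr1:193201547-193201796 (minus), chr2:25546941-25547190 (minus), chr9:7873171-7873420 (minus), chr9:7837058-7837307 (minus, the upstream one of 2 annotated starts) and chr12:111166120-111166369 (plus). The reference is C57BL/6J, whereas the mice were BALB/c.
Traf1: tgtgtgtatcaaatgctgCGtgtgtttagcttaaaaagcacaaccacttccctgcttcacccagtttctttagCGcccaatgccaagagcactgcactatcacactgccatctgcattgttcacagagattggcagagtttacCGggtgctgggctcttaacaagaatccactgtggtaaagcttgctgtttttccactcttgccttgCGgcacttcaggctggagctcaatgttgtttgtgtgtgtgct
Traf3ip3: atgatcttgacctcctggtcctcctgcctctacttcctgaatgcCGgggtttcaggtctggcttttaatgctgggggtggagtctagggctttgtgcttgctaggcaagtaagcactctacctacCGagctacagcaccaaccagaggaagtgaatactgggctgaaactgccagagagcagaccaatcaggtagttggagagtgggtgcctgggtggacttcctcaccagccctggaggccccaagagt
Traf2: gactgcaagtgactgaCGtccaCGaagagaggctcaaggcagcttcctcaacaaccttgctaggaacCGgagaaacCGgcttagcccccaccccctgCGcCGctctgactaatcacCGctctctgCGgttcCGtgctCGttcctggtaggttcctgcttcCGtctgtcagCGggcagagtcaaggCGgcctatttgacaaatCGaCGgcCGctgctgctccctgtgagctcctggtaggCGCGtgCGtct
Birc3: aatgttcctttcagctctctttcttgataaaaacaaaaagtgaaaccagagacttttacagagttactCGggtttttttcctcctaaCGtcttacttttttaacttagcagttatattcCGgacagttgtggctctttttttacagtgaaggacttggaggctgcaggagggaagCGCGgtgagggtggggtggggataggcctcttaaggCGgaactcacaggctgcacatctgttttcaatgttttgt
Birc2: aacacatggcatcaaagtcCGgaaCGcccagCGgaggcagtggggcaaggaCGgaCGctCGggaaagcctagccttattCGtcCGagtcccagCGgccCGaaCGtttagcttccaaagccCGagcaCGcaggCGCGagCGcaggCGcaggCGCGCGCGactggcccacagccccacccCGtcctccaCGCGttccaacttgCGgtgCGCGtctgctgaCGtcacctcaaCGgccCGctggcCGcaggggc
Traf3: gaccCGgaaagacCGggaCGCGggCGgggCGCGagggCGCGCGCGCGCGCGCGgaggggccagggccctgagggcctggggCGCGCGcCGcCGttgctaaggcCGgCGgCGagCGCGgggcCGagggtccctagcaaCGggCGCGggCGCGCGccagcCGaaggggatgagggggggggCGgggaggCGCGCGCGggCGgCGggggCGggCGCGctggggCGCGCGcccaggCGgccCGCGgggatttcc

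The windows of Traf3ip3 and Traf1 hold 2 and 4 CG dinucleotides and that of Birc3 holds 6, against 19 in Traf2, 31 in Birc2 and 49 in Traf3. Of the windows not printed, Traf5 has 12, Traf6 13, Map3k14 19 and Traf4 22, and the other start of Birc2 has 19. The median over all 32851 annotated windows is 6. The κB consensus, the motif of NF-κB, was searched on both strands and found in 1 of the 10 genes, against 8.23% of all 27025 genes with a window. The match, GGGGATTTCC, is in Traf3 and occupies the last 10 bases before the start. The AP-1 motif TGANTCA, present in 7.82% of genes, and TATAAA, present in 14.3%, were in none of these windows. These are matches of letters within 250 bases, and sites farther away were not searched.

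Traf1 (chr2:34941750-34961772, minus strand, GRCm38 as are all positions of genes here) had the largest change of the 10 genes. TRAF1 lacks the RING domain of the other TRAFs, forms complexes with TRAF2 and is a known NF-κB target gene. Its values were 9.16, 9.01 and 9.03 log2 CPM in stimulated replicates 1, 2 and 3 and 6.65, 6.75 and 6.44 in the unstimulated ones. All stimulated samples were thus far above all unstimulated samples. The log2FC was 2.45 (SE 0.08, FDR = 1.70e-08 in limma, Benjamini-Hochberg), larger in absolute value than that of 10759 of the 11233 tested genes. The differences within replicate numbers 1, 2 and 3 were 2.50, 2.26 and 2.59.

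Traf2 (chr2:25517982-25546940, minus strand), the partner of TRAF1 and the TRAF that brings in cIAP, was at 6.28, 6.31 and 6.32 log2 CPM in stimulated and at 6.30, 6.32 and 6.31 in unstimulated samples. The groups overlapped, and the whole range of the 6 samples was narrower than the spread within either group of Traf1. The log2FC was -0.01, with a 95% interval from -0.14 to 0.12 (FDR = 0.923 in limma, Benjamini-Hochberg). Its pooled SD between replicates, 0.0148, was undercut by 10 of the 11233 tested genes, and 72 had a smaller absolute log2FC. The ratio of Traf1 to Traf2 within a sample, which a factor common to all genes of the sample leaves unchanged (quantile normalization is not such a factor), was 0.30 ± 0.15 in unstimulated and 2.76 ± 0.10 in stimulated samples on the log2 scale (mean ± SD, n = 3 in each group).

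Traf3 (chr12:111166370-111267153, plus strand), which restrains NIK and also acts in type I interferon signaling, was at 6.49, 6.50 and 6.40 log2 CPM in stimulated and 6.65, 6.72 and 6.80 in unstimulated samples. Stimulated samples were lower without overlap, by 1.20-fold. The log2FC was -0.27 (SE 0.065, FDR = 0.00394 in limma, Benjamini-Hochberg), and the call was lost when both samples numbered 3 were left out (log2FC -0.20, FDR = 0.0885 in limma, Benjamini-Hochberg), an alternative chosen after seeing the data.

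Map3k14 (chr11:103219762-103267472, minus strand) encodes NIK. It stood at 5.84, 6.003 and 6.04 log2 CPM with CpG and at 6.50, 6.54 and 6.55 without. The unstimulated samples were nearly equal, and all stimulated samples lay below them. The log2FC was -0.57 (SE 0.07, FDR = 3.53e-05 in limma, Benjamini-Hochberg). The log2 ratio of Traf3 to Map3k14 was 0.50 ± 0.14 in stimulated and 0.19 ± 0.05 in unstimulated samples (mean ± SD, n = 3 each). Protein levels of NIK, which are set largely by degradation, were not measured here.

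Birc2 and Birc3 are neighbors on the minus strand of chromosome 9, at chr9:7818227-7837064 and chr9:7848699-7873186, with 11.6 kb between them. Birc2, taken as cIAP1, was at 6.54, 6.73 and 6.58 log2 CPM in stimulated and at 6.40, 6.53 and 6.64 in unstimulated samples. The groups overlapped and the log2FC of 0.09 did not pass (95% interval -0.09 to 0.27, FDR = 0.311 in limma, Benjamini-Hochberg). Birc3, taken as cIAP2, was at 9.38, 9.48 and 9.51 with CpG and at 8.90, 8.84 and 8.93 without. All stimulated samples were above all unstimulated ones. The log2FC was 0.57 (SE 0.06, FDR = 1.58e-05 in limma, Benjamini-Hochberg). The log2 ratio of Birc3 to Birc2 was 2.37 ± 0.11 in unstimulated and 2.84 ± 0.09 in stimulated samples (mean ± SD, n = 3 each), without overlap. RefSeq lists each of the symbols among the older names of the other, and the files give symbols only, so the assignment rests on the symbol. Of all stretches of 75 bases in their annotated transcripts, 0.875% of Birc2 and 3.88% of Birc3 also occur in another gene.

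Traf6 (chr2:101678429-101701669, plus strand), the ubiquitin ligase that carries the TLR9 signal from IRAK kinases to TAK1, was higher after CpG. Its values were 7.24, 7.14 and 7.11 log2 CPM in stimulated and 6.59, 6.51 and 6.47 in unstimulated samples. The log2FC was 0.64 (SE 0.06, FDR = 8.23e-06 in limma, Benjamini-Hochberg), and the differences within replicate numbers were nearly the same at 0.64, 0.63 and 0.64.

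Traf4 (chr11:78158499-78165589, minus strand), a TRAF with fewer known roles in receptor signaling of lymphocytes, had 8.68, 8.75 and 8.59 log2 CPM in stimulated and 8.03, 7.99 and 7.63 in unstimulated samples. Unstimulated replicate 3, labeled male, was the lowest. The log2FC was 0.79 (SE 0.10, FDR = 4.85e-05 in limma, Benjamini-Hochberg) and 0.66 without that sample.

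Traf5 (chr1:191997205-192092559, minus strand), a TRAF that binds CD40 together with TRAF3, was at 3.47, 3.83 and 3.47 log2 CPM in stimulated and 4.33, 4.67 and 4.68 in unstimulated samples. In each group 2 samples were close together and the groups did not overlap. The mean in stimulated samples corresponds to about 214 reads in a library of 17.8 M. The log2FC was -0.97 (SE 0.13, FDR = 9.29e-05 in limma, Benjamini-Hochberg), just short of -1. It went past -1 without stimulated replicate 2 or without unstimulated replicate 1, and 2 of the 10 genes were then called lower with a log2FC under -1. The log2 ratio of Traf5 to Traf2 was -1.75 ± 0.19 in unstimulated and -2.71 ± 0.20 in stimulated samples (mean ± SD, n = 3 each).

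Traf3ip3 (chr1:193175453-193201703, minus strand), which encodes a TRAF3-interacting adaptor found mainly in lymphocytes, had the most negative log2FC of the 10. It was at 3.94, 4.28 and 4.20 log2 CPM in stimulated and at 5.80, 5.997 and 6.08 in unstimulated samples. Every stimulated sample was more than 1 log2 unit below every unstimulated sample. The log2FC was -1.82 (SE 0.11, FDR = 2.46e-07 in limma, Benjamini-Hochberg), and within replicate numbers 1, 2 and 3 the difference was -1.85, -1.71 and -1.89. The gene A130010J15Rik lies across it on the other strand. Its span holds 942 bases of Traf3ip3 exons, with the exons of different transcripts counted separately, so some bases may count more than once. Of the stretches of 75 bases in Traf3ip3, 4.34% are shared with that gene. A130010J15Rik itself was at 3.29 to 3.50 log2 CPM in stimulated and 3.06 to 3.29 in unstimulated samples and did not pass (log2FC 0.20, FDR = 0.142 in limma, Benjamini-Hochberg). The kit kept the strand, but whether counting used it is not given in the sources used here.

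**Figure D2:**
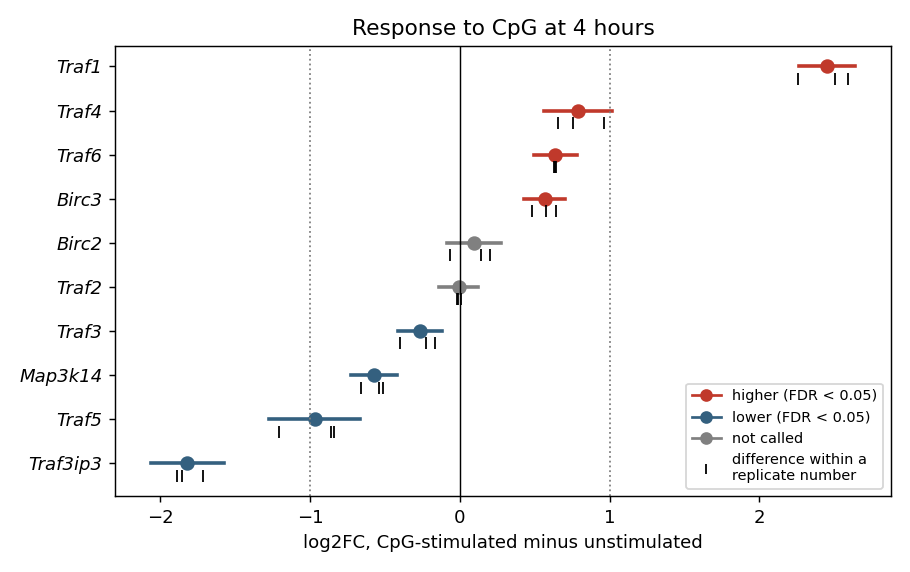
Log2FC of each gene on the horizontal axis (points) with its 95% interval from limma (bars), and the 3 differences within replicate numbers (ticks below each bar), with dotted lines at -1 and 1. Traf1 lies at 2.45 and Traf3ip3 at -1.82, and the intervals of Traf2 and Birc2 include 0.

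All 4 ratios between pairs of genes separated the groups without overlap. Each pair holds a gene that separated them on its own, as 77.7% of all tested genes did. The share among other pairs of genes was not computed. An exact two-sided permutation test gave p = 0.1 for each, also after Benjamini-Hochberg adjustment over the 4 pairs, which is the smallest p that 3 samples against 3 can give.

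To compare levels between genes, values were divided by the exonic length of each gene in GENCODE M21, the bases covered by an exon of any of its transcripts, to give RPKM. In unstimulated samples Birc3 had the highest mean level per length (94.7 RPKM), followed by Traf4 (72.2), Birc2 (20.1), Traf2 (15.6), Traf3 (14.4), Map3k14 (14.2), Traf6 (11.7), Traf1 (11.1), Traf3ip3 (10.8) and Traf5 (5.19). The samples of Traf3 and Map3k14 overlapped, and those of Traf6, Traf1 and Traf3ip3 all overlapped with each other. The order within each of these sets is thus not resolved. After CpG the order was Birc3 (140.3 RPKM), Traf4 (124.1), Traf1 (60.8), Birc2 (21.5), Traf6 (18.2), Traf2 (15.5), Traf3 (12.0), Map3k14 (9.54), Traf3ip3 (3.08) and Traf5 (2.66), and only the last pair overlapped. The length counts rarely used exons in full, so genes with many annotated transcripts may be understated on this scale. A lack of overlap between samples does not measure this error. The order of close genes, such as Traf2 (15.6) and Traf3 (14.4) without CpG, is thus uncertain too.

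Summed over Traf1 to Traf6, the level per length was 117.6 to 136.7 RPKM in unstimulated and 223.3 to 238.2 in stimulated samples, without overlap. Traf1 held 8.36%, 8.93% and 8.35% of this sum in unstimulated replicates 1, 2 and 3 and 27.2%, 24.6% and 26.5% in the stimulated ones. Traf4 held the largest share in every sample, 55.3% ± 3.6 without and 53.2% ± 1.5 with CpG (mean ± SD, n = 3 each), with overlap between the groups. The shares of Traf2 and Traf3 were lower after CpG, at 6.65% ± 0.31 from 12.0% ± 1.0 and at 5.14% ± 0.02 from 11.2% ± 1.5. The level of Traf2 itself differed by 0.01 on the log2 scale between the groups. Birc3 held 82.5% ± 1.1 of the summed level of Birc2 and Birc3 without and 86.7% ± 0.7 with CpG.

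**Figure D3:**
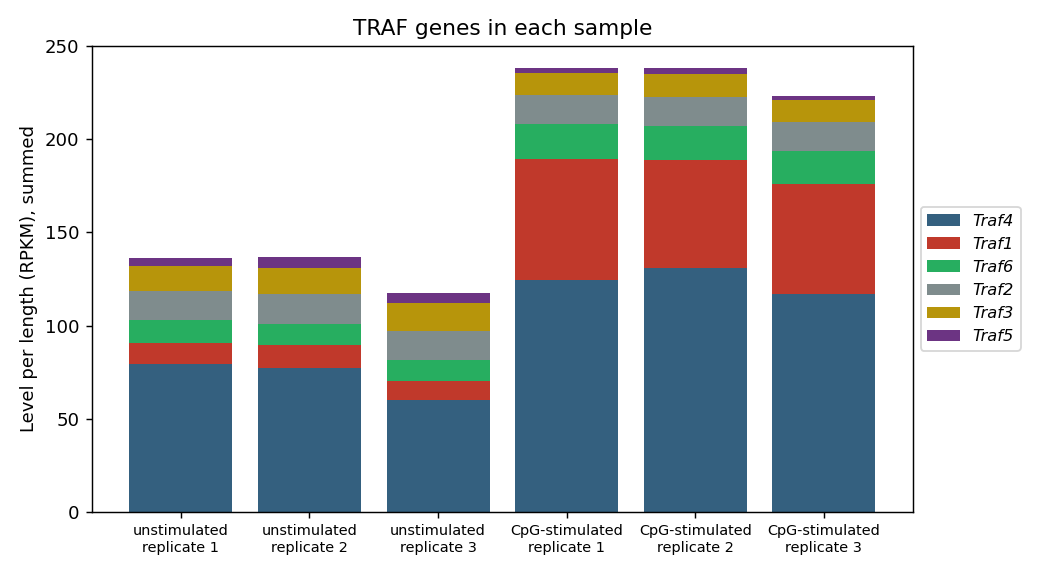
Level per length of Traf1 to Traf6, in RPKM, stacked for each of the 6 samples from 0. The red segment, Traf1, grows from about 8% to about 26% of the bar, and the blue segment, Traf4, is the largest in every sample.

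Partners of these proteins were compared in 8 lists by function, 81 genes in all, of which 75 were tested, 34 were called higher, 31 lower and 10 in neither direction. Over all tested genes 37.6% were called higher and 36.7% lower, 74.3% in all, and this background holds for each list below. The median log2FC of these genes was 0.06. They were chosen with earlier results of these data known, so their counts are a description. Among the TNF receptor superfamily members that recruit TRAFs, 9 of 13 were tested, with 6 higher and 3 lower (median log2FC 1.07). Tnfrsf13b, which encodes the BAFF and APRIL receptor TACI, was at 4.17 ± 0.02 in unstimulated and 7.15 ± 0.09 log2 CPM in stimulated samples (mean ± SD, n = 3), so that log2FC was 2.98 (SE 0.07, FDR = 5.40e-09 in limma, Benjamini-Hochberg). Tnfrsf8 (CD30), whose signaling uses TRAF1 and TRAF2, had a log2FC of 6.24, but its unstimulated samples had a mean of -3.27, below the level of 3 reads (-2.34), and with log2(CPM + 1) it was 2.98, so the size of this change is uncertain. Tnfrsf8 passed the filter only through its stimulated samples, so a call of higher was favored in advance. Its call is part of the counts and the median of this list and of all 8 lists. Cd40, a receptor for TRAF2, TRAF3, TRAF5 and TRAF6, was at 8.07 ± 0.15 with CpG and 6.49 ± 0.13 log2 CPM without (log2FC 1.58). Cd27 (log2FC -1.43) and Tnfrsf1b (TNF receptor 2, -0.67) fell. The lymphotoxin β receptor gene Ltbr and Tnfrsf1a, Tnfrsf11a and Tnfrsf17 were too low to be tested.

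On the route from TLR9 to TRAF6, 6 of 14 genes were higher and 6 lower (median log2FC -0.09). Tlr9 itself (log2FC 1.07) and Ube2n, the conjugating enzyme that works with TRAF6 (0.66), had the largest rises, and Myd88 rose by 0.59 on the log2 scale. Tifa, a TRAF6-binding protein, had a log2FC of -2.51 (SE 0.24, FDR = 6.37e-06 in limma, Benjamini-Hochberg) and Irak3, a kinase homolog that restrains TLR signaling, of -1.66.

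Among genes for the linear ubiquitin ligase and deubiquitinases, 4 of 11 were higher and 5 lower (median 0.06). Cyld, which removes ubiquitin chains from TRAF2 and other TRAF complexes, fell from 7.39 ± 0.09 to 5.84 ± 0.05 log2 CPM (mean ± SD, n = 3 each, log2FC -1.56), and Otud7b, a deubiquitinase of TRAF3, had a log2FC of -0.93. Tnfaip3, which encodes the inhibitor of NF-κB signaling A20, had a log2FC of 0.67 and its partner Tnip2 of 0.55.

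Of 14 genes for IKK subunits, NF-κB subunits and IκB proteins, 9 were higher and 4 lower (median 0.45). Nfkbiz (log2FC 3.52) and Nfkbia (1.83), which encode IκB proteins, had the largest rises, and Rel (-1.21) and Relb (-0.46) the largest falls. Nfkb2, whose product is processed under the control of NIK, rose by 1.04 on the log2 scale, from 8.46 ± 0.13 to 9.50 ± 0.14 (mean ± SD, n = 3 each).

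Among death-domain adaptors and the caspase-8 complex, 2 of 6 genes were higher and 3 lower (median -0.23). Cflar, which encodes the caspase-8 inhibitor cFLIP, went up to 9.05 ± 0.16 from 6.55 ± 0.05 log2 CPM (mean ± SD, n = 3 each), with log2FC 2.50. Tradd (0.26) was the other gene called higher, a call that was lost in 5 of 15 alternatives, and Casp8 (-0.69) and Ripk3 (-0.58) fell. Of 9 genes for TBK1 and TRAF-binding proteins, 2 were higher, 3 lower and 4 not called (median -0.02). Ikbke, a kinase related to TBK1, rose from 1.35 ± 0.22 to 4.64 ± 0.21 (log2FC 3.29), while Tbk1 had a log2FC of -0.53. Siva1 rose (0.84) and Traf3ip2 fell (-0.36), a call lost without both samples numbered 3 (log2FC -0.28, FDR = 0.079 in limma, Benjamini-Hochberg).

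Of 8 other IAP family members and IAP antagonists, 6 were tested, with 3 higher and 3 lower (median 0.02). Birc5 (survivin, log2FC 1.31) and Diablo, an antagonist of IAP proteins (1.17), were higher, and Naip2 (-0.99) and Birc6 (-0.65) lower. Naip2 belongs to a family of close paralogs, so its counts may be shared. Among 6 kinases acting with TRAFs, 5 MAP kinase kinase kinases and Map4k2, a kinase upstream of them, 2 were higher and 4 lower (median -1.20), led by Map4k2 (-1.66) and Map3k1 (-1.54). Map3k8 (0.83) and Map3k5 (0.37) rose.

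**Figure D4:**
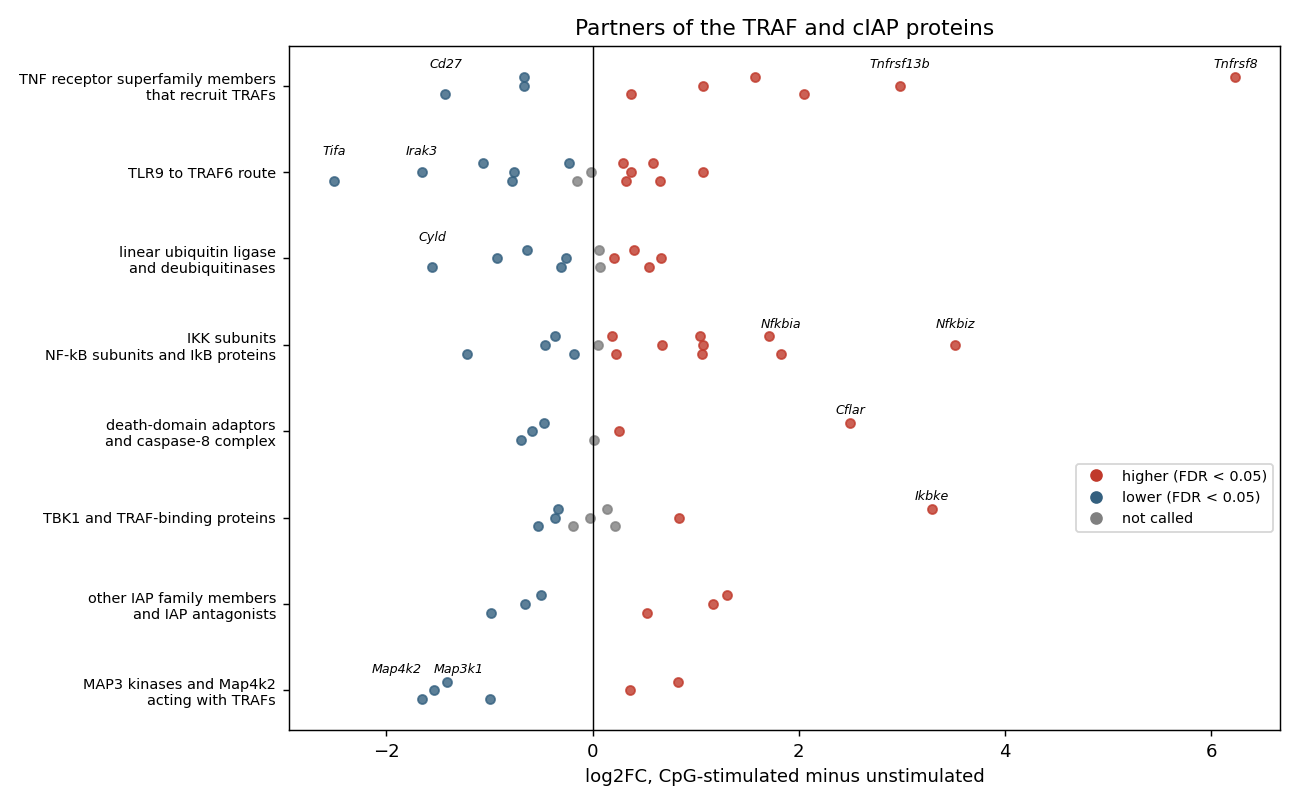
Log2FC of each tested gene of the 8 partner lists (points), stimulated minus unstimulated, colored by call, with the named genes of larger change labeled. Over all 8 lists 34 of the 75 genes are higher and 31 lower, against 37.6% and 36.7% of all tested genes.

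The 3 tested genes whose values over the 6 samples were most like those of Traf1, by the root mean square distance after centering each gene on its mean, were Ece2 (distance 0.106), Rab39b (0.118) and Dctpp1 (0.118). For Traf3ip3 they were E030030I06Rik (0.0578), Pxk (0.0630) and Susd1 (0.0639). Within a distance of 0.2 there were 52 genes for Traf1 and 292 for Traf3ip3. With stimulated and unstimulated samples only, this distance mostly measures how close the log2FC of the genes are. The named genes had log2FC 2.54, 2.35 and 2.40 for Traf1 and -1.90, -1.75 and -1.83 for Traf3ip3. Shared regulation was not tested.

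The B cell markers Ms4a1, Cd79a, Cd79b, Cd22 and Pax5 were detected in all samples, and after CpG Ms4a1 was higher (log2FC 0.77) whereas Cd22 (-2.40), Cd79b (-1.17), Pax5 (-0.32) and Cd79a were lower. By contrast, 0 of 6 T cell markers reached the level of 10 reads in the mean and 4 were at or under 3 reads in all samples, and their summed level was 0.444 to 0.536 CPM in stimulated and 0.394 to 0.529 in unstimulated samples. Summed markers of NK cells were at 1.47 to 2.58 CPM in stimulated and 3.05 to 3.55 in unstimulated samples, and of these Prf1 alone was tested (log2FC -1.57, called lower). Klrb1c, too low to be tested, went the other way without overlap, at -0.84 to 0.23 log2 CPM with CpG and -4.90 to -4.27 without. Markers of plasmacytoid dendritic cells summed to 0.900 to 1.27 against 1.52 to 2.35 CPM, with Ccr9 the only one tested (log2FC -0.94, called lower). Those of myeloid cells summed to 10.0 to 15.6 against 7.35 to 14.4, with Adgre1 called higher (log2FC 0.83) and Csf1r (-1.61) and Cd14 (-1.73) called lower. Csf1r and Cd14 were under the level of 10 reads in every stimulated sample and above it in every unstimulated sample. Both genes thus passed the filter only through their unstimulated samples. A call of lower was favored in advance for them, and the size of their change is uncertain. Plasma cell markers were at 408 to 538 against 728 to 1075, with Jchain and Sdc1 called lower. Erythroid markers moved with the replicate number, not the group, at 4912 and 3845 CPM in stimulated and unstimulated replicate 2 and lowest values of 384 and 404 in the groups. Without both samples numbered 2, again 4 of the 10 genes were called higher and 4 lower, and the part of other cell types in the values was not tested beyond this. In such bulk samples, fewer cells of a type and less RNA per cell cannot be told apart.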

How the data were processed

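RNA-seq values of 3 CpG-stimulated and 3 unstimulated samples were used, grouped by the sample titles. Reads of 75 bases were mapped by the authors to mm10 (STAR 2.6.1a, with FastQC 0.11.7 and Trim Galore 0.6.5 named in the submitters' processing notes) and counted per gene with featureCounts (Subread 2.0.1), followed by quantile normalization within voom. The deposited values are on the log2 scale (log2 CPM) and are not counts, so no count test was run. Quantile normalization removes differences in the overall distribution between samples, and sequencing depth per sample is unknown. A gene without reads was taken to be at the commonest value, -5.152 (0.5 reads), which gives a library of 17.8 M reads. Some genes lie below that value, 1504 and 1327 in the stimulated and unstimulated samples numbered 1, of which 887 are shared. Why is not given in the sources used here. Trat1, a T cell marker, was at -5.825, -4.815 and -4.815 in replicates 1, 2 and 3 of both groups alike. Whether a step by replicate number changed the spread that the p-values measure was not tested.

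The groups were tested by linear models with moderated variance and a mean-variance trend (limma 3.58.1, R 4.3.3) over genes above the level of 10 reads (-0.76) in at least 3 samples, with Benjamini-Hochberg adjustment over all of them. The code was tested on simulated data with few changed genes and with noise independent between samples, unlike these data. Replicate 3 is labeled male and the others female. The labels name 3 mice, but nothing states that replicates 1 and 2 are separate animals. The p-values thus measure the spread between these samples, which may be technical. All 10 genes are given. In each partner list the called genes with the 2 largest positive and the 2 most negative log2FC are named, with Cd40, Myd88 and Nfkb2 added as direct partners. Members and lists were chosen with earlier results of these data known, and promoter features were read after the values were seen. Stretches of 75 bases were compared with GENCODE M21 transcripts. Promoter windows, found for all 10 genes, are from RefSeq (GRCm38.p6). Otulin, Jchain, Hbb-bs and Adgre1 were matched by older symbols. Of the B cell markers, 1 is not reported here.

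Samples with the same replicate number deviated together from their group means across genes (r = 0.435, 0.224 and 0.300 for numbers 1, 2 and 3, against -0.281 to 0.0279 for other pairs), so the number was also used as a replicate block. The labels do not say where such a pairing would come from. Both samples numbered 3 are labeled male, and both numbered 2 had the high erythroid markers. The part of these in the correlation was not tested. Other alternatives were no filter, 10 reads in every sample, log2(CPM + 1), median centering, no variance trend, robust moderation, and fits without single samples or without both samples numbered 2 or 3. A fit without both samples numbered 1, the number with the largest r, was not run.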

Additional observations from a re-analysis of the deposited data

How the results depend on the processing

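Among the log2FC values of the 10 genes with each of 15 alternatives, 148 had the same direction and call as in the main comparison, 1 lost its call and 1 reversed. The 2 filters, the replicate block, no variance trend and robust moderation leave the log2FC of any gene unchanged, so only its call could differ. Median centering could change little, as the sample medians were already 4.685 to 4.699. Traf2, which is not called, reversed to 0.0033 without stimulated replicate 1 (range without single samples -0.0137 to 0.0033), and Traf3 was not called without both samples numbered 3. In all alternatives 4 genes were called higher, and 4 lower except for 3 without both samples numbered 3. With a log2FC under -1 as well, 1 to 2 were called lower without single samples, and 2 without both samples numbered 2. Over all genes, the fits without single samples called 3783 to 4124 genes higher and 3721 to 4147 lower. With the replicate block, 4390 and 4287 were called, and the block changed no call among the 10 genes. Among values of the named partners that passed the filter, 513 kept direction and call, and Tradd and Traf3ip2 lost theirs in the other 6. Tnfrsf8 gave no value with 10 reads in every sample, without any single stimulated sample or without both samples numbered 2 or 3, and its log2FC fell to 2.98 with log2(CPM + 1). The change of the pair ratios without single samples ran from 0.43 to 0.54 (Birc3 to Birc2), 2.37 to 2.52 (Traf1 to Traf2), 0.23 to 0.38 (Traf3 to Map3k14) and -1.08 to -0.89 (Traf5 to Traf2). The causes of lost calls were not tested, though fewer samples enter those fits. Leaving out samples by number was chosen after seeing the data.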
